A study of Mus musculus with 2 samples.

Results

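Heat shock proteins and folding chaperones were examined on 2 arrays that compare the kidney RNA of 1 Mxi1 -/- mouse, labelled experiment, with that of 1 Mxi1 +/+ control mouse. Both animals carry the label 1Y, while the sources used here state neither strain, sex nor which bases of Mxi1 are deleted. Mxi1 encodes a MAX partner that opposes MYC at shared DNA sites. Members were the annotated genes whose current symbol starts with Hsp (other than the matrix proteoglycan Hspg2), Dnaj, Pdia, or Cct followed by 2 to 8, together with Tcp1, Calr, Canx, Sdf2l1, Herpud1 and Hyou1. The rule found 64 genes among 10208 named genes on the array, each with 1 probe. They are 64 of the 94 protein-coding mouse genes in RefSeq whose symbols meet the same rule. By the known location of their products, 38 were cytosolic, 14 belonged to the endoplasmic reticulum (ER), 5 were mitochondrial, and 7 were J proteins of other or unassigned places.

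Chaperones bind unfolded proteins and help them reach or keep their fold. HSP70 proteins work in cycles of ATP hydrolysis that J proteins start and nucleotide exchange factors end, HSP90 proteins act on late folding steps, and the chaperonins HSP60 and TRiC enclose a protein in a chamber. The ER has its own set, joined there by disulfide isomerases and by lectin chaperones that read sugar chains. Heat and other proteotoxic stress raise the cytosolic set through heat shock factors, whereas misfolded protein in the ER raises the ER set through the unfolded protein response. The kidney makes large amounts of membrane transporters and works in a salty, hypertonic medulla, and both are known to call on chaperones.

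Values are linear array intensities, and differences are log2 of Mxi1 -/- minus log2 of Mxi1 +/+ after each array was centred on its median, so positive values are higher in Mxi1 -/-. With 1 mouse per genotype there is no spread between animals, no test was possible, and every difference below compares 2 kidneys. A 1.5-fold line was used as a rule of size. Of the 64 members, 63 had a reading above 0 on both arrays, and the remaining one, Dnajc24, carried the missing-value code on both. Of the 63, 48 were well measured, meaning that their mean level reached the array median, and 15 lay below it. The only error estimate is technical: from 41 well-measured genes that had 2 probes, the standard deviation (SD) of a probe's difference came to 0.17 log2 units. A noise floor, 3 times the root mean square of an array's negative values, was 0.102 in Mxi1 +/+ and 0.156 in Mxi1 -/-.

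The targeted gene, Mxi1, read 4.31 in the control and 1.69 in the library labelled Mxi1 -/-, a 2.54-fold lower value there. Whether its probe lies in the deleted stretch is unknown. As a check of the tissue, all 10 named kidney genes were well measured, 6 of them higher and 4 lower in Mxi1 -/-. Their summed intensity was 886 in Mxi1 +/+ and 1210 in Mxi1 -/-, and without Napsa it was 412 and 440.5. Markers of other cells differed between the kidneys, where 59.9% of all well-measured genes were lower and 40.1% higher in Mxi1 -/-. All 9 adipocyte genes were lower in Mxi1 -/- (summed intensity 262 and 89.5, or 78.3 and 17.5 without Fabp4), with Ucp1 under the noise floor there. One of them, Lep, was nearly level (4.86 and 4.83). Of 9 stratified epithelium genes 8 were lower (36.5 and 17.0), with Trp63 under the floor in Mxi1 -/-, and all 10 interferon and MHC genes were higher (81.6 and 229). Their part in the chaperone values was not tested. In whole-kidney RNA, fewer cells of a type and less RNA per cell cannot be told apart.

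Most chaperones differed little between the 2 kidneys, though a smaller share lay within the lines than of genes in general. Of the 48 well-measured members, 33 (68.8%) were within 1.3-fold, against 80.7% of all genes, and 41 (85.4%) within 1.5-fold, against 92.3%. In Mxi1 -/- 22 were higher and 26 lower, so 45.8% were higher, against 40.1% of all 5737 well-measured genes. Their median difference was -0.07, and that of all genes was -0.06. Past the 1.5-fold line 4 members were higher (8.33%, against 2.41% of all genes) and 3 were lower (6.25%, against 5.26%). The higher ones were Hspa2, Sdf2l1, Hsp90b1 and Cct3, and the lower ones were Cct2, Hspb2 and Canx. No member passed 2-fold on the higher side, where 0.558% of all genes did, and 1, Cct2, passed it on the lower side, where 1.39% did. The line at 0.58 log2 units falls among close values. Cct3 at 0.59 and Canx at -0.60 lay just past it, and Tcp1 at -0.56 and Cct8 at -0.54 just short of it.

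**Figure D1:**
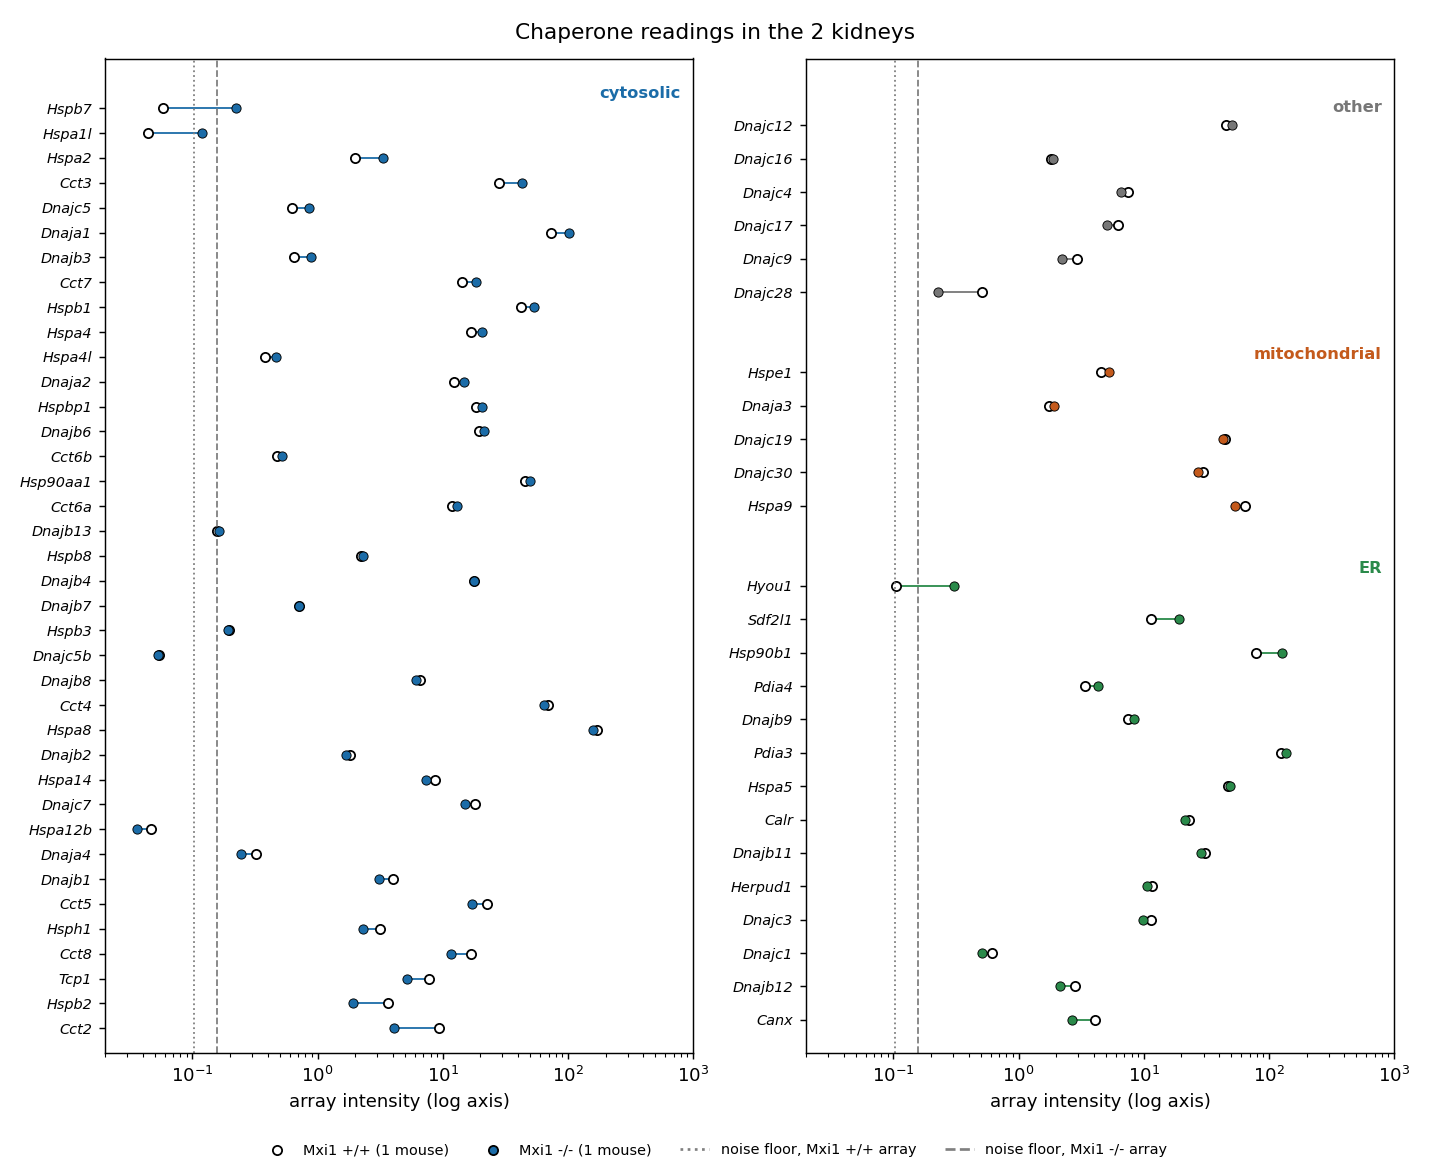
Array intensity (log axis) of the 63 measured chaperone genes in Mxi1 +/+ (open points) and Mxi1 -/- (filled points, coloured by compartment), 1 mouse each, ordered by difference within a compartment. Most pairs of points touch, the long lines among well-measured genes belong to Cct2 and Hspb2, and those of Hspb7, Hspa1l and Hyou1 start at or under the noise floors (vertical lines at 0.102 and 0.156).

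Among the members, spread differed between compartments while the medians stayed near 0. The median difference over all measured members was 0.03 for the 38 cytosolic genes, -0.06 for the 5 mitochondrial genes and -0.02 for the 14 ER genes. The sign of the mitochondrial and ER medians depended on the processing, as quantile normalization gave 0.04 and 0.05. The cytosolic median stayed above 0 under each other way of processing but was -0.05 over the well-measured members alone. Among well-measured genes the SD across genes was 0.45 for 26 cytosolic members, 0.40 for 12 ER members and 0.19 for 5 mitochondrial members, beside 0.39 for all 5737 genes. The central 95% of all genes ran from -0.80 to 0.57, and 6 of the 48 members (12.5%) lay beyond it, where 5% of all genes do by definition. These were Hspa2, Sdf2l1, Hsp90b1 and Cct3 above and Cct2 and Hspb2 below. When the range was taken within 4 equal bins of level, Dnaja1 joined them above.

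**Figure D2:**
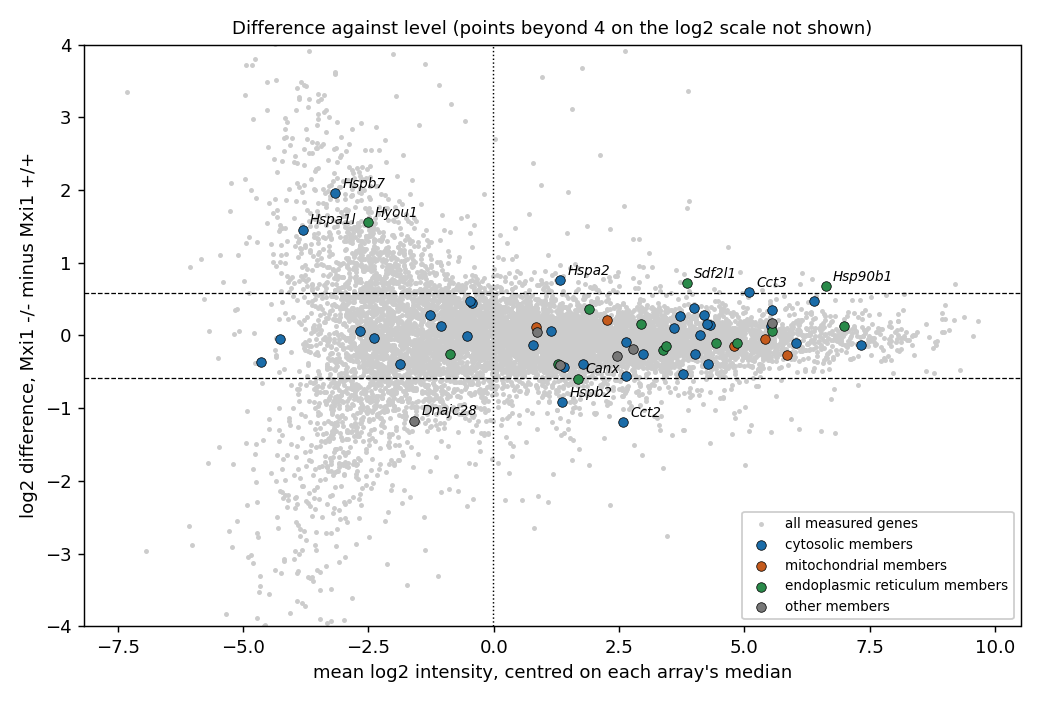
Log2 difference (Mxi1 -/- minus Mxi1 +/+) against mean centred log2 intensity for all measured genes (grey) and the chaperones (coloured by compartment), with the 1.5-fold lines dashed and the median level dotted. At or above the median level 41 of 48 members lie between the dashed lines, and the scatter of all genes widens below it, where Hspb7, Hspa1l, Hyou1 and Dnajc28 lie.

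In the ER, Hsp90b1 and Sdf2l1 read higher and Canx read lower in Mxi1 -/-, while BiP and most partners of BiP differed little. Hsp90b1, known as GRP94, is the HSP90 of the ER lumen and folds integrins and Toll-like receptors. Its reading was 79.4 in the control and 127 in Mxi1 -/-, 1.60-fold higher (log2 0.68). Sdf2l1, a lumenal protein that works with the J protein encoded by Dnajb11, read 11.5 and 19.0, 1.65-fold higher (log2 0.72). Both values lay above the 0.45 that bounds the central 95% of genes in the same bin of level.

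Hspa5 encodes BiP, the ER HSP70 whose transcript is the usual readout of the unfolded protein response. Its readings, 47.0 in the control and 49.0 in Mxi1 -/-, lay 1.04-fold apart. Its J-protein partners lay on both sides of 0. Dnajb9 (ERDJ4) read 7.44 and 8.29, 1.11-fold higher. Dnajb11 (ERDJ3) read 30.8 and 28.5, 1.08-fold lower, and Dnajc3 (P58IPK) read 11.4 and 9.90, 1.15-fold lower. Each of these differences, and that of Hspa5, was within 1.2-fold. The ER membrane J protein gene Dnajb12 stood further apart, at 2.83 and 2.15 (1.31-fold lower), and Dnajc1, below the median level, read 0.609 and 0.512. Hyou1 encodes GRP170, a nucleotide exchange factor of BiP. It read 0.104 and 0.306, and since the first value lies at the noise floor of 0.102, its 2.95-fold difference rests on a reading close to noise.

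The 2 disulfide isomerase genes read higher and the 2 lectin chaperone genes lower in Mxi1 -/-. The differences of Pdia3 (log2 0.13) and Calr (-0.10) lay within the technical SD of 0.17. Pdia4 (ERP72) read 3.38 in the control and 4.34 in Mxi1 -/-, 1.29-fold higher. Pdia3 encodes ERP57, the isomerase that acts with calreticulin and calnexin on glycoproteins, and read 125 and 136, 1.09-fold higher. Its lectin partners were not higher with it. Calreticulin (Calr) read 23.1 and 21.4, 1.08-fold lower, and calnexin (Canx), the membrane-bound lectin, read 4.05 and 2.68, 1.51-fold lower. Canx passed the line by a narrow margin and fell short of it with quantile normalization (-0.54), lowess (-0.54) or a pseudocount (-0.45). Herpud1, an ER membrane protein that organises degradation of misfolded proteins and is itself a strong target of the unfolded protein response, read 11.7 and 10.5, 1.11-fold lower. Plasma cells are rich in ER chaperones. Of 7 measured B cell and plasma cell markers, 4 lay below the median level. In Mxi1 -/- 6 were higher (summed intensity 8.09 and 10.3, or 6.61 and 7.16 without Fcer2a), beside 40.1% of all well-measured genes. Ms4a1 was under the floor there. The 3 well-measured markers were Cd79a (1.04-fold higher), Cd79b (1.25-fold) and Fcer2a (2.15-fold). Prdm1 (1.07-fold higher) and Irf4 (1.16-fold) were among those below the median level. The part of these cells in the ER values was not tested.

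Most of the ER set is known to be controlled through the ER stress element, which reads CCAAT, then 9 bases of any kind, then CCACG, so promoter sequences were searched for it on both strands. RefSeq promoters (GRCm38.p6, from 250 bases before to 50 after each start site) were at hand for 54 of the 64 members. The element was found in 5 of 13 ER members and in 0 of 32 cytosolic and 0 of 3 mitochondrial members, while 0.137% of 27025 genes had it. Its shorter relative, ER stress element II (ATTGG, 1 base, CCACG, a search added after the data were seen), was found in 2 further ER members, beside 0.0444% of all genes. The matches are shown with 6 flanking bases because they place the same letters beside genes with different readings. Capitals mark the fixed letters, each line is written along the motif's own strand, and the strand is given after the coordinates.
Hsp90b1, chr10:86705632-86705662, minus strand: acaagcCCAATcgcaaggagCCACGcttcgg
Hsp90b1, chr10:86705527-86705557, plus strand: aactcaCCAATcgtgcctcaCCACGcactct
Hspa5, chr2:34772019-34772049, plus strand: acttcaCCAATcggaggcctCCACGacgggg
Calr, chr8:84847069-84847099, plus strand: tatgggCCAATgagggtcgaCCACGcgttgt
Canx, chr11:50325794-50325824, minus strand: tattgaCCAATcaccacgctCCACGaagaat
Dnajc3, chr14:118937821-118937851, plus strand: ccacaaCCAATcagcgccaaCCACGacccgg
Herpud1 (element II), chr8:94386371-94386393, plus strand: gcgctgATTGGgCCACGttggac
Dnajb11 (element II), chr16:22857846-22857868, plus strand: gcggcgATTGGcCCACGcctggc

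The 5 genes with the element ran from Canx at -0.60 through Dnajc3 (-0.20), Calr (-0.10) and Hspa5 (0.06) to Hsp90b1 at 0.68, so genes that carry it read lower and higher. The 2 genes with element II stood at -0.15 (Herpud1) and -0.11 (Dnajb11). Sdf2l1, the other ER member past the line on the higher side, had neither match in this window. Hsp90b1 was the ER member with 2 matches, in opposite orientations. The 250 bases before its start site (chr10:86705445-86705694, minus strand) are printed with the letters of both elements in capitals, so that their spacing can be seen.
Hsp90b1 promoter: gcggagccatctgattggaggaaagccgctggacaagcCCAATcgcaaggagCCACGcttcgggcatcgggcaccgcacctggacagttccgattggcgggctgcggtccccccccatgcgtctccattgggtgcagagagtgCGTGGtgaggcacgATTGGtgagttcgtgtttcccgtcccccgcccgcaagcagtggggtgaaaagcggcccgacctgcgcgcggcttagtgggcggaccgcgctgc

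**Figure D3:**
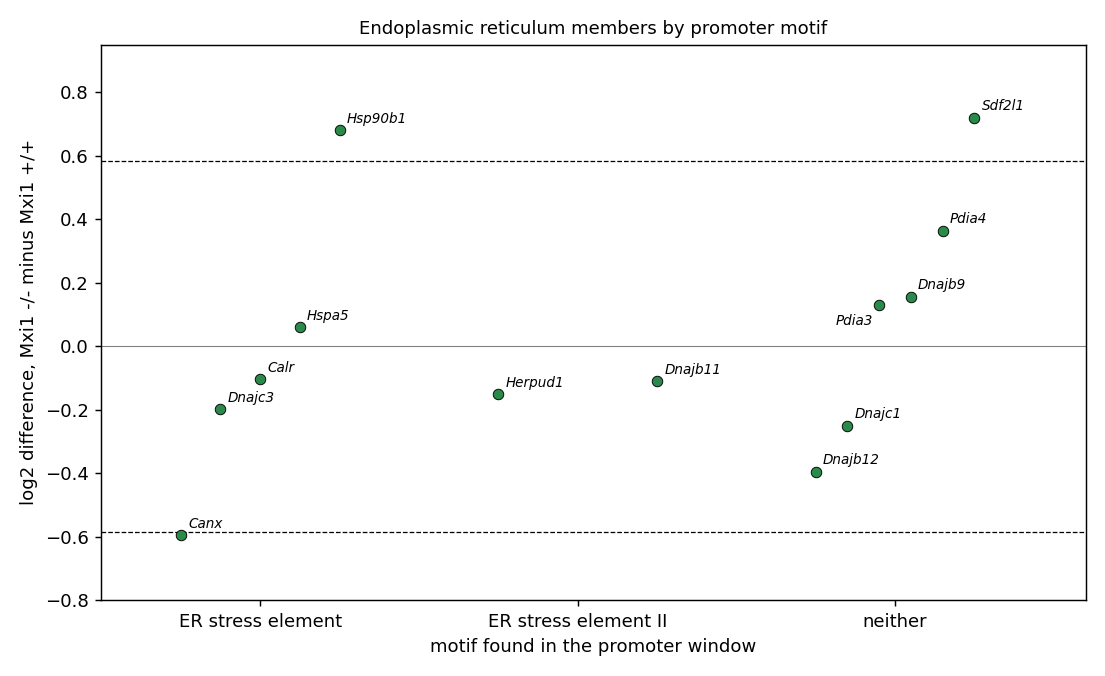
Log2 difference (Mxi1 -/- minus Mxi1 +/+, 1 mouse each) of the 13 ER members with a promoter sequence, grouped by the motif found in the window, with the 1.5-fold lines dashed. Genes with the ER stress element span -0.60 (Canx) to 0.68 (Hsp90b1), and genes with neither motif span -0.39 (Dnajb12) to 0.72 (Sdf2l1).

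Among cytosolic chaperones the HSC70 gene Hspa8 and the HSP90 gene Hsp90aa1 differed by 1.09-fold each, in opposite directions, and Hspa2 stood apart. Hspa8 encodes HSC70, the housekeeping HSP70, and read 172 in the control and 157 in Mxi1 -/-, 1.09-fold lower. Hsp90aa1, the stress-inducible cytosolic HSP90, read 45.1 and 49.3, 1.09-fold higher. Hspa2, an HSP70 best known from male germ cells, read 1.97 and 3.33, 1.69-fold higher (log2 0.76), the highest difference among the well-measured members as processed here. With a pseudocount it was 0.54, short of the line. Hspa14, a ribosome-associated HSP70, read 8.74 and 7.33, 1.19-fold lower. Hspa1l and Hspa12b lay under the noise floor on both arrays and have no fold. The inducible HSP70 genes Hspa1a and Hspa1b and the constitutive HSP90 gene Hsp90ab1 were not analysed here, as no named probe was assigned to them.

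Factors that act on HSP70 went both ways. The exchange factors of the HSP110 class divided: Hspa4 read 16.9 in Mxi1 +/+ and 20.6 in Mxi1 -/- (1.22-fold higher), and Hsph1, which is strongly heat-inducible, read 3.14 and 2.32 (1.35-fold lower). Hspa4l, below the median level, read 0.383 and 0.465. Hspbp1, another exchange factor, read 18.6 and 20.7, 1.11-fold higher. The main J partners of HSC70 also divided. Dnaja1 read 73.2 and 101, 1.38-fold higher, and Dnaja2 read 12.3 and 14.8, 1.20-fold higher. The heat-inducible Dnajb1, which encodes HSP40, read 4.04 and 3.08, 1.31-fold lower.

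The remaining well-measured cytosolic J proteins stayed within 1.21-fold. Dnajb4 read 17.7 in both kidneys, Dnajb6, which keeps aggregation-prone proteins soluble, read 19.4 and 21.4, and Dnajc7, which binds HSP70 and HSP90, read 18.1 and 15.1. Dnajb2 and the testis-rich Dnajb8 were 1.09-fold and 1.07-fold lower. Below the median level, Dnajc5 (0.621 and 0.859) and Dnajb3 (0.647 and 0.878) read higher in Mxi1 -/-, Dnaja4 (0.321 and 0.245) lower, and Dnajb7 and Dnajb13 differed by 1.00-fold and 1.04-fold. Dnajc5b lay under both noise floors. Across all compartments the 20 well-measured J proteins spanned -0.41 to 0.47, with an SD of 0.24 across genes, and none passed 1.5-fold.

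**Figure D4:**
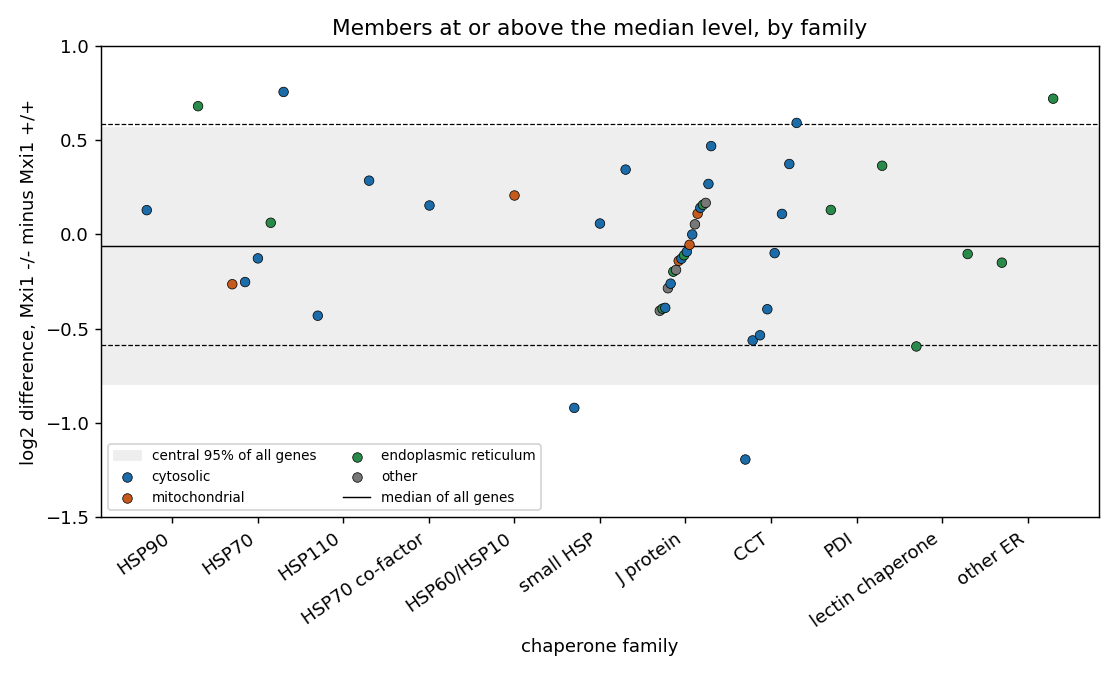
Log2 difference (Mxi1 -/- minus Mxi1 +/+, 1 mouse each) of the 48 well-measured members, by family and coloured by compartment, with the central 95% of all genes shaded, the median of all genes as a line and the 1.5-fold lines dashed. The J proteins stay inside the shaded band, and the CCT family has points beyond both of its edges.

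Small heat shock proteins hold unfolding proteins in a state that HSP70 can recover. Hspb1 (HSP27), the widely expressed one, read 42.3 in the control and 53.7 in Mxi1 -/-, 1.27-fold higher. Hspb2, best known from muscle, read 3.64 and 1.92, 1.89-fold lower (log2 -0.92). Hspb8, which works with BAG3 in clearing aggregates, read 2.22 and 2.31. Those 3 genes, the well-measured small heat shock proteins, thus differed in direction and size. Hspb3 read 0.198 and 0.192, and Hspb7 was under the floor in Mxi1 +/+ (0.058) and read 0.225 in Mxi1 -/-, at least 2.20-fold higher against that floor. This bound takes 0.225 as exact, though it lies near the Mxi1 -/- floor of 0.156. With a pseudocount the Hspb7 difference was 0.21 log2 units.

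The low Hspb2 reading had a parallel in its chromosomal neighbour. Cryab, which encodes the small heat shock protein alpha-B-crystallin and is the next gene to Hspb2 on chromosome 9, is no member by its symbol but belongs to the list of chaperone partners described further on. It read 75.02 in the control and 29.9 in Mxi1 -/-, 2.51-fold lower (log2 -1.33), the largest difference among the 75 well-measured partner genes. Of the 5 named skeletal and heart muscle markers, all lay below the median level, 3 were higher and 2 lower. Their summed intensity was 1.82 and 0.92, and without Tnni2, which read 1.31 and 0.297, it was 0.516 and 0.625. The 3 higher markers, Ckm, Tnnt3 and Actn2, lay under the floor in Mxi1 -/-, and Tnnt3 and Actn2 did so on both arrays. The 2 lower ones, Tnni2 and Mb (0.360 and 0.303), lay above the floor on both. The adipocyte markers given above, other than the nearly level Lep, were also lower. The part of either cell type in the Hspb2 and Cryab readings was not tested.

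The cytosolic chaperonin TRiC, a ring that folds actin and tubulin, is built from 8 different subunits in equal number, and their transcripts diverged most within the families with at least 5 well-measured members. Cct2 read 9.28 in the control and 4.05 in Mxi1 -/-, 2.29-fold lower (log2 -1.20). Cct3 read 28.4 and 42.7, 1.51-fold higher (log2 0.59). These subunit genes were the lowest and the highest of the ring. Tcp1, which encodes the alpha subunit, read 7.73 and 5.23, 1.48-fold lower. Cct8 read 16.8 and 11.6, 1.45-fold lower, and Cct5 read 22.6 and 17.2, 1.32-fold lower. A further subunit stood on the higher side: Cct7 read 14.3 and 18.5, 1.3-fold higher. The rest were nearly level, with Cct4 at 69.6 and 64.9 (1.07-fold lower) and Cct6a at 12.0 and 12.9 (1.08-fold higher). Of the 8 subunit genes 5 were lower and 3 higher (37.5%), near the 40.1% of all genes that were higher.

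The SD of the difference across the 8 subunit genes was 0.58, beside 0.24 for the 20 J proteins, 0.39 for all well-measured genes and a technical SD of 0.17 per probe. The distance between Cct3 and Cct2 came to a ratio of 3.45. In the HSP70 family, the other one of that size, the 5 well-measured genes ranged from -0.26 to 0.76. Genes of prefoldin, the complex that hands actin and tubulin to TRiC, and its relatives showed an SD of 0.12 over 6 genes. Cct3 fell to 0.57 with a pseudocount, short of the 1.5-fold line, and Cct2 stayed between -1.20 and -1.02 under the 6 other settings. The testis-rich paralogue Cct6b, below the median level, read 0.473 and 0.518.

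The 5 mitochondrial members differed by at most 1.20-fold. Hspa9, or mortalin, is the mitochondrial HSP70 that pulls proteins through the inner membrane, and read 64.3 in the control and 53.5 in Mxi1 -/-, 1.20-fold lower. Hspe1 encodes HSP10, the lid of the HSP60 chamber, and read 4.56 and 5.27, 1.16-fold higher. Dnaja3 (TID1), a J partner of mortalin, read 1.76 and 1.90. All 3 differences were small beside the 1.5-fold line. Dnajc19, of the import motor, read 44.5 and 42.8, and Dnajc30 read 30.0 and 27.2. The mitochondrial HSP90 gene Trap1, no member by its symbol, is given with the partners. The 15 well-measured mitochondrial genes among those partners ranged more widely, from -0.51 to 0.65. The HSP60 gene Hspd1 was not analysed here, as no named probe was assigned to it.

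J proteins of other or unassigned places were also close. Dnajc9, a histone chaperone that carries a J domain, read 2.93 in the control and 2.21 in Mxi1 -/-, 1.32-fold lower. Dnajc17 was 1.22-fold lower, Dnajc4 1.14-fold lower, Dnajc12 1.12-fold higher and Dnajc16 1.04-fold higher. Dnajc28, below the median level, read 0.513 and 0.227, 2.26-fold lower.

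Regulators and partners of the chaperones that are no members were described from a list of sensors, factors, co-chaperones, quality control genes and mitochondrial import and protease genes. Of 90 listed genes with a named probe, 88 were measured and 75 were well measured. Of these 40 were higher and 35 lower in Mxi1 -/- (53.3% higher, against 40.1% of all genes), with a median of 0.01, against -0.06. Past 1.5-fold 2 were higher, beside the 2.41% of all genes, and 2 were lower, beside 5.26%. Among transcription factors of the ER response, Xbp1 read 9.95 and 10.6, Atf4 read 63.7 and 65.1, and the pro-apoptotic Ddit3 (CHOP) read 7.91 and 9.56. The largest of these 3 differences was 1.21-fold. Hsf2, a heat shock factor, had readings below 0 on both arrays, and Hsbp1, a binding partner of heat shock factor 1, read 32.4 and 33.1.

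The well-measured partner genes past the line were spread over different roles. Creld2, an ER protein with disulfide isomerase activity that is induced by ER stress, read 33.7 in the control and 52.1 in Mxi1 -/-, 1.55-fold higher. Phb, prohibitin of the inner mitochondrial membrane, read 17.2 and 26.9, 1.56-fold higher. Herpud2, a relative of Herpud1, read 1.77 and 1.07, 1.65-fold lower, and Cryab is given above. Below the median level, the partners past 1.5-fold all read lower in Mxi1 -/-. They were Spg7 (0.87 and 0.432), Cryaa (0.491 and 0.262), Ern1 (0.648 and 0.385), Yme1l1 (1.02 and 0.642) and Mbtps2 (0.272 and 0.149). Mbtps2 was under the noise floor in Mxi1 -/-. Serpinh1 (HSP47), the collagen chaperone of the ER, read 3.58 and 4.81, 1.34-fold higher, and Ero1a, which oxidises disulfide isomerases, read 2.77 and 3.82, 1.38-fold higher. The ER stress element was found in 3 of 76 partner genes with a promoter sequence. These were Creld2, Ero1b, which read 1.35 in both kidneys, and Derl3, which read 3.29 and 3.43 (1.04-fold higher), so carriers among the partners too differed in size. All 3 are shown (chr15:88819514-88819544, chr13:12565676-12565706 and chr10:75893236-75893266, each on the minus strand).
Creld2: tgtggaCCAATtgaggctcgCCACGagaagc
Ero1b: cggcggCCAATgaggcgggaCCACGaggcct
Derl3: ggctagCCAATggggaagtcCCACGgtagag
In the same ER folding and oxidation group, 11 of 17 well-measured genes were higher (64.7%, against 40.1% of all genes). The group's median was 0.01, against -0.06 for all genes. Several were nearly level: Sdf2, Ero1b, Fkbp11 and Fkbp14, counted as higher, lay at 0.02 or less, and Fkbp7, counted as lower, lay at -0.001. On the cytosolic side the HSP70 co-factor Bag1 read 53.4 and 39.2, 1.36-fold lower. Trap1, the mitochondrial HSP90, read 12.9 and 9.07, 1.42-fold lower. Mbtps1, the protease that activates ATF6, read 1.75 and 1.22, 1.43-fold lower. Bag1, Trap1, Mbtps1 and Ero1a were chosen after their values were seen. With Serpinh1 they are all the well-measured partners between 1.3-fold and 1.5-fold apart.

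**Figure D5:**
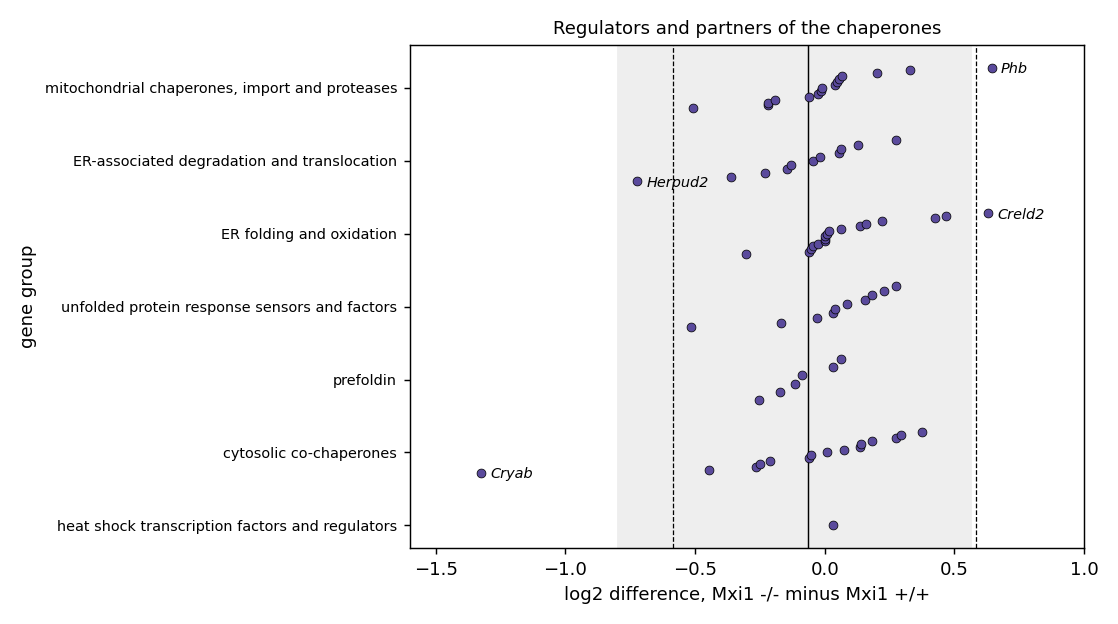
Log2 difference (Mxi1 -/- minus Mxi1 +/+, 1 mouse each) of the 75 regulators and partners that were well measured, by group, with the central 95% of all genes shaded, the median of all genes as a line and the 1.5-fold lines dashed. The 4 genes named in the plot are those past a dashed line, with Cryab at -1.33 furthest out.

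Further promoter motifs were searched in the same windows on both strands. The heat shock element (GAA, 2 bases, TTC, 2 bases, GAA) was found in 3 of 54 members, or 5.56%, beside 0.662% of all genes. The 3 genes are shown because their readings differed in direction: Hspe1 was 1.16-fold higher, Dnajb6 1.10-fold higher and Hsph1 1.35-fold lower. Capitals mark the repeated units.
Hspe1, chr1:55088058-55088082, plus strand: gttctaGAAccTTCcgGAAggcccc
Dnajb6, chr5:29735846-29735870, plus strand: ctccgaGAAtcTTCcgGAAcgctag
Hsph1, chr5:149636282-149636306, plus strand: tgaggaGAActTTCcaGAAtctgca
The E-box CACGTG, the site bound by MAX with MYC or with MXI1, was found in 5 of 54 members, or 9.26%, beside 8.09% of all genes. Shown for that link to Mxi1, with the E-box in capitals, they are these.
Hsph1, chr5:149636323-149636340, minus strand: aagtggCACGTGgaggcg
Calr, chr8:84847144-84847161, minus strand: ttcagtCACGTGaccgtg
Dnajb9, chr12:44210164-44210181, minus strand: gttttcCACGTGcgcgta
Dnajc1, chr2:18392944-18392961, minus strand: ctgacaCACGTGcagctg
Dnajc16, chr4:141790711-141790728, minus strand: aagtgaCACGTGactgcc
Of these members, Hsph1, Calr and Dnajc1 read lower and Dnajb9 and Dnajc16 higher in Mxi1 -/-, and none passed 1.5-fold. Among the 76 partner genes with a promoter sequence, 10 (13.2%) had an E-box. Fkbp5, Stub1, Atf6b and Txndc5 read lower, Fkbp11, Derl3, Phb, Tomm20 and Timm10 read higher, and Hsf2 was not measured. Only Phb, 1.56-fold higher, passed the line among those partners. A match describes letters in the window only.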

How the data were processed

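Per the labels' protocols, kidney RNA was column-purified, treated with DNase and amplified into biotin-tagged cRNA for CodeLink arrays. For each of 20289 probes the deposited table holds an intensity on a linear scale from each array. No source used here names the software, background correction or normalization. The code -9999 (60 and 39 places) was read as missing. The number of arrays, 1 per genotype, limits the precision.

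Platform annotation named 10208 genes, updated through RefSeq (GRCm38.p6). Intensities above 0 in both arrays (19663 probes) were taken to log2, with no pseudocount, then centred on each array's median, and a gene with several probes took the one with the highest mean level, which left 9985 genes. No statistical test was run, as the design has no replicates. Alternatives were no centring, quantile normalization, lowess, a pseudocount of the array median, averaged probes, the noise floor and other filters and lines. The code was run on simulated arrays with known shifts put in. That run checks the arithmetic of the log2 step and centring only, and not measurement noise or the floors. Members, lists and motifs were chosen with earlier results of these data known. Genes were named by a rule: families in full, the 3 members with the highest readings per compartment, well-measured members (mean level at or above the array median) at least 1.3-fold apart, bounds, partners past 1.5-fold, and 8 chosen regulators and ER partners (Hsf1, Hsf2, Xbp1, Atf4, Atf6, Ddit3, P4hb, Serpinh1) where measured. A planned search of protein features was not run. The work used NumPy 2.4.6, matplotlib 3.10.9, statsmodels 0.14.6 and pandas 2.3.3 under Python 3.11.15.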

Additional observations from a re-analysis of the deposited data

How the results depend on the processing

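No paired analysis was possible because each genotype has 1 mouse, and no sample could be left out for the same reason. The 4 members past 1.5-fold higher became 2 with a pseudocount (Hspa2 and Cct3 fell short), 7 with no filter on level and 0 at the 2-fold line. The 3 lower members became 1 with the filter at the 75th percentile of level and 1 at the 2-fold line, and 2 without Canx under quantile normalization, lowess or a pseudocount. None of the 7 members past the line changed sign under the 6 other settings of scaling, pseudocount, probe averaging or floor. Among well-measured members, the sign changed for 2 with quantile normalization and 1 with lowess, all of them within 1.1-fold. Compartment medians moved by less than the technical SD of 0.17 under each setting run. That SD is larger than the medians themselves, so it cannot show that they were stable. With quantile normalization the mitochondrial median went from -0.06 to 0.04 and the ER median from -0.02 to 0.05. Below the median level, readings near the noise floors limit what can be said of a difference.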
